A study of Mus musculus with 36 samples.

Results

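Immediate early genes are the genes that a cell transcribes first after a stimulus, before any new protein has been made. Of these, 10 members were followed by name in the small intestine of wild-type (WT) mice and of knockout (KO) mice without the long noncoding RNA lnc13: Fos, Fosb, Jun, Junb, Egr1, Egr2, Nr4a1, Ier2, Atf3 and Dusp1. All 10 were found among 27179 Entrez genes of the intestinal libraries and among 78275 Ensembl genes of each CD8 table. There were 12 intestinal libraries, 2 WT and 2 KO each of whole tissue, of lamina propria lymphocytes (LPL) and of intraepithelial lymphocytes (IEL), from lnc13-WT-DQ8 and lnc13-KO-DQ8 mice that had all been challenged with gluten. DQ8 is a human MHC class II molecule tied to coeliac disease, and it was present in both genotypes of these 12 libraries. Purified CD8 IELs, titled lnc13-WT and lnc13-KO without DQ8, gave 12 more libraries, 3 per genotype labelled unstimulated and 3 per genotype kept for 48 h in IL-15, a cytokine that activates these cells. The labels give no age, do not say whether the unstimulated cells had been cultured, and call replicates biological without naming animals. P-values therefore measure the spread between these libraries. Of the 36 samples, the 24 named here were used.

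The members fall into a few roles. Fos and Fosb are basic leucine zipper (bZIP) proteins that bind DNA as AP-1 in pairs with Jun or Junb. Atf3 is a bZIP protein induced by many kinds of stress. Egr1 and Egr2 are zinc finger transcription factors, Nr4a1 (Nur77) is an orphan nuclear receptor that T cell receptor signals induce, and Ier2 is a small nuclear protein. Dusp1 is the member that acts on the signal itself, as a phosphatase that switches off MAP kinases. MAP kinases and calcium reach these genes through factors such as CREB, which binds the cyclic AMP response element (CRE), and serum response factor (SRF), which binds the CArG box. In lymphocytes the genes mark recent receptor signals, and in many tissues they are also known to be induced while cells are being taken out of the organ.

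The stretch just upstream of an annotated transcript start is shown for 4 members. Fos and Junb had the smallest differences from tissue among the transcription factors, and Nr4a1 and Dusp1 larger ones. Each sequence is the 250 bases before such a start in RefSeq (GRCm38.p6), read 5′ to 3′ on the gene's strand. Capitals mark the CRE core TGACG on either strand. For Nr4a1 the start used lies inside the gene's span given below, not at its outer end. The windows of Egr2 in which a motif was found also lie inside its span. The windows are chr12:85473640-85473889 on the plus strand for Fos, chr8:84978749-84978998 on the minus strand for Junb, chr15:101266596-101266845 on the plus strand for Nr4a1 and chr17:26508473-26508722 on the minus strand for Dusp1.
Fos: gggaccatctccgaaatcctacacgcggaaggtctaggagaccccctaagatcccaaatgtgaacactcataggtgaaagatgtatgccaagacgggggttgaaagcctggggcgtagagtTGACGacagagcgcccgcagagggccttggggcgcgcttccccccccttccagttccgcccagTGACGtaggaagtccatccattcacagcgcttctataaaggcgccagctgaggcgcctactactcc
Junb: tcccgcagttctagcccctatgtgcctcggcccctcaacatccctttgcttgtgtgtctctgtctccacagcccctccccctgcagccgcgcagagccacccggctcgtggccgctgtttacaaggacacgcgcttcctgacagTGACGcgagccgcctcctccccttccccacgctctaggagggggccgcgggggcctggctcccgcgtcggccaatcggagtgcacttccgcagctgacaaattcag
Nr4a1: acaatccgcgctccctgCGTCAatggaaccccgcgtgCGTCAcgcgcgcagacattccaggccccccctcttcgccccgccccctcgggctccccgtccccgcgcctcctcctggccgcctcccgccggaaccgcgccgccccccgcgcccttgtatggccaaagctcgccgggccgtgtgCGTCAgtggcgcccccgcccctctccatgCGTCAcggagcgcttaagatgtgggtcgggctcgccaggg
Dusp1: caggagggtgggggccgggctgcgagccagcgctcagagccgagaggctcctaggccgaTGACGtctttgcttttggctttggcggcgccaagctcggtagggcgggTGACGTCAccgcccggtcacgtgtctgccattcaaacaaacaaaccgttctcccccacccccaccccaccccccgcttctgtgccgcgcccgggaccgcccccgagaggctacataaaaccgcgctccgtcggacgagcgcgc
The window of Nr4a1 held 4 cores, that of Dusp1 3, that of Fos 2 and that of Junb 1. These 4 windows do not stand for all members, since Fosb, with the largest difference from tissue, held 1 core. Core number was not tested against the differences from tissue. In Dusp1, 2 of the 3 cores overlap as the 2 strands of a full CRE, TGACGTCA. Of the 8 members with a window used here, 7 held at least 1 core, all but Jun, against 17.8% of 32851 windows of the same length and 19.8% of 27025 genes. The full CRE was in the window of 1 member, Dusp1 (1.55% of all windows), the CArG box in 1, Egr2 (1.47%), and TATAAA in 1, Fos (12.4%). The AP-1 site TGACTCA (4.46% of windows) and the EGR site GCGTGGGCG (0.536%) were in none of the 8. These are matches of letters on either strand, not measured binding, and a window without a match says nothing of a factor that binds elsewhere. The genes themselves lie on chromosome 12 for Fos (85473890 to 85477274), 7 for Fosb (19302696 to 19310118), 4 for Jun (95049036 to 95052222), 10 for Egr2 (67534469 to 67542188), 15 for Nr4a1 (101253902 to 101274795), 1 for Atf3 (191170296 to 191183333) and 17 for Dusp1 (26505591 to 26508472), on GRCm38.p6. Junb (84976909 to 84978748) and Ier2 (84661331 to 84662852) both lie on chromosome 8.

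Depth was 10186522 to 13620975 reads in genes over the intestinal libraries, and 16428511 to 23762128 (unstimulated) and 14724754 to 26997371 (IL-15) over the CD8 libraries. Whole tissue had been flash frozen, ground in liquid nitrogen and taken into TRIzol, whereas cells had been extracted with a Quick-RNA Miniprep kit, so preparation and extraction cannot be told apart. Genes of other cells were present in both lymphocyte preparations. The 8 epithelial markers (Epcam, keratins, villin and others, none at 0) summed to 22778 to 34484 CPM (read counts scaled to library size) in tissue, 7855 to 10617 in LPL and 10883 to 12589 in IEL. The 9 T cell markers summed to 34.1 to 74.4 CPM in tissue, 2.42 to 103 in LPL and 214 to 729 in IEL, with Cd3g and Trac at 0 in LPL KO replicate 1. The 7 exocrine pancreas markers summed to 4288 to 9037 CPM in LPL and to at most 8.7 in tissue and IEL. The 6 smooth muscle markers ran the other way, with 749 to 3354 CPM in tissue, 17.8 to 165 in LPL and 3.13 to 4.64 in IEL. The part of these cell mixtures in the results below was not tested, and in bulk RNA a change in the number of cells of a type and a change in RNA per cell cannot be told apart. The genotype labels were taken as given, with no check on lnc13 itself.

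All 10 members were higher in both cell preparations than in whole tissue, and by large factors. In edgeR's quasi-likelihood test with Benjamini-Hochberg adjustment over 14716 genes, 10 of 10 passed the threshold of 0.05 as higher in LPL than in tissue, where 27.3% of all genes did. Another 10 of 10 passed as higher in IEL than in tissue, where 21.9% of all genes did. On the log2 scale the members' differences ran from 2.39 to 8.65 in LPL, with a median of 4.78 against 0.029 for all genes, and from 2.02 to 7.36 in IEL, with a median of 3.62 against 0.05. Summed over the 10 members, tissue libraries held 496 to 1230 CPM, IEL libraries 5212 to 6731 and LPL libraries 11051 to 11678. The 3 ranges did not overlap.

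**Figure D1:**
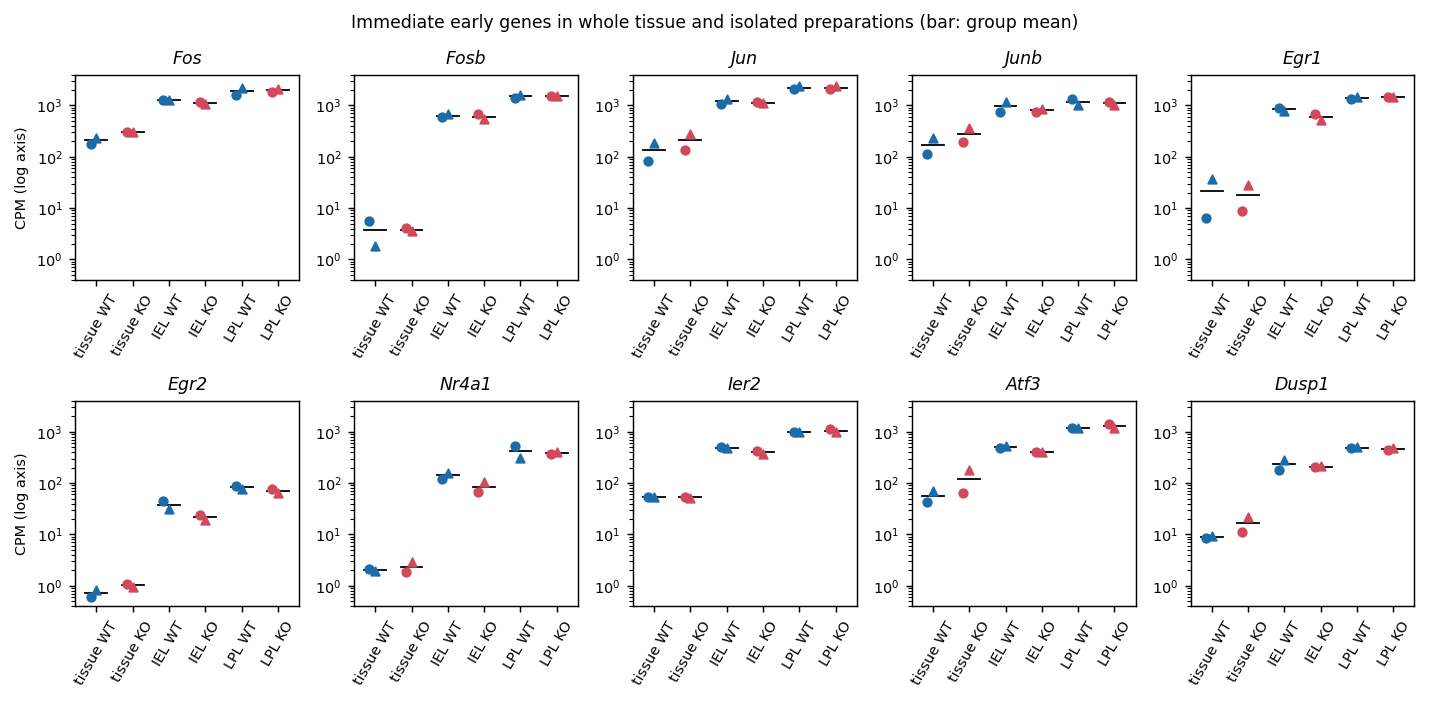
CPM of each member in each library on a log axis, with WT in blue, KO in red, circles for replicate 1, triangles for replicate 2 and bars for group means. Every IEL and LPL library lies above every tissue library in all 10 panels, and Egr1, Jun and Junb differ within tissue between replicate 1 and replicate 2.

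Among the AP-1 genes, Fosb had the largest difference. It stood at 5.61 and 1.81 CPM in WT tissue and 4.02 and 3.59 in KO tissue. LPL libraries held 1424 and 1573 CPM in WT and 1536 and 1537 in KO, and IEL libraries 595 and 669 in WT and 670 and 541 in KO. So Fosb was low in frozen tissue, high in every LPL library and intermediate in every IEL library. The LPL mean of 1518 ± 64.7 CPM (SD, n = 4) was 404 times the tissue mean of 3.76 ± 1.56, and the IEL mean was 165 times it. On the log2 scale LPL exceeded tissue by 8.65 (SE 0.38, adjusted p = 3.76e-06 in edgeR), rank 28 from the top among 14716 genes, and IEL by 7.36 (SE 0.36, adjusted p = 1.48e-05), rank 10.

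Fos started from a much higher level in tissue, 180 and 236 CPM in WT and 300 and 303 in KO. It reached 1622 and 2172 in WT LPL and 1852 and 2119 in KO LPL, and 1251 and 1268 in WT IEL and 1160 and 1059 in KO IEL. The groups did not overlap, yet the ratio to tissue was only 7.62 in LPL and 4.65 in IEL (log2 differences 2.95, SE 0.18, adjusted p = 1.25e-05 and 2.24, SE 0.17, adjusted p = 0.000106 in edgeR). Jun had 83.4 and 186 CPM in WT tissue and 138 and 281 in KO tissue. Its LPL values were 2052 and 2393 in WT and 2051 and 2384 in KO, and its IEL values 1060 and 1359 in WT and 1145 and 1121 in KO. Jun was thus 12.9 times higher in LPL and 6.81 times higher in IEL than in tissue by the ratio of means. Junb had the smallest differences of the 10, 2.39 in log2 for LPL (SE 0.30, adjusted p = 0.000243) and 2.02 for IEL (SE 0.29, adjusted p = 0.00107). Its libraries held 112, 228, 198 and 356 CPM in tissue (WT then KO), 1333, 1003, 1180 and 1035 in LPL, and 750, 1169, 760 and 857 in IEL. Junb was the member in which LPL and IEL overlapped, since 1 IEL library with 1169 CPM lay above 2 of the LPL libraries.

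Both zinc finger genes, of which Egr1 lies on chromosome 18 (34861207 to 34864956, GRCm38.p6), were low in tissue. Egr1 stood at 6.3 and 36.8 CPM in WT tissue and 8.81 and 27.8 in KO tissue, so replicate 2 exceeded replicate 1 by 5.84 times in WT and 3.15 times in KO. Against that spread it reached 1338 and 1484 CPM in WT LPL and 1442 and 1463 in KO LPL, and 892 and 779 in WT IEL and 679 and 526 in KO IEL. The lowest IEL library therefore lay well above the highest tissue library, and the log2 difference was 6.17 in LPL (SE 0.61, adjusted p = 7.41e-05) and 5.16 in IEL (SE 0.58, adjusted p = 0.000397). Egr2, which T cells induce after receptor engagement, was at 0.604 to 1.09 CPM in the 4 tissue libraries. It rose to 88.8 and 76.5 CPM in WT LPL and 77.7 and 62.8 in KO LPL. IEL libraries were lower, with 44.5 and 31.5 in WT and 23.8 and 19.3 in KO. The LPL mean was 88 times and the IEL mean 34.3 times the tissue mean (log2 differences 6.46, SE 0.21, adjusted p = 1.20e-06 and 5.04, SE 0.21, adjusted p = 5.39e-06).

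Nr4a1 showed the second-largest difference in LPL and in IEL. Tissue libraries held 2.16 and 1.98 CPM in WT and 1.85 and 2.87 in KO. LPL libraries held 526 and 302 CPM in WT and 370 and 409 in KO, and IEL libraries 122 and 160 in WT and 67.3 and 104 in KO. The 3 preparations did not overlap, with log2 differences from tissue of 7.50 in LPL (SE 0.30, adjusted p = 2.85e-06) and 5.63 in IEL (SE 0.28, adjusted p = 1.74e-05). Ier2 had the tightest tissue values, 53.8 and 52.9 CPM in WT and 53.5 and 51.8 in KO. It stood at 992, 976, 1115 and 979 CPM in LPL and at 498, 482, 430 and 363 in IEL, WT before KO. No library of one preparation reached the range of another. The ratio of means was 19.2 for LPL and 8.37 for IEL.

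The stress-induced Atf3 had 42.9 and 69.2 CPM in WT tissue and 64.6 and 181 in KO tissue. LPL libraries held 1196 and 1196 in WT and 1384 and 1163 in KO, and IEL libraries 477 and 530 in WT and 400 and 411 in KO. The KO tissue library with 181 CPM stood apart from the other 3 but remained below every IEL library. Log2 differences from tissue were 3.89 in LPL (SE 0.33, adjusted p = 3.93e-05) and 2.45 in IEL (SE 0.31, adjusted p = 0.000629). Dusp1 stood at 8.54 and 9.16 CPM in WT tissue and 11.3 and 21.7 in KO tissue, against 480, 502, 434 and 493 in LPL and a mean of 220 ± 43.8 (SD, n = 4) and a highest value of 282 in IEL. The phosphatase thus moved with the transcription factors, by 5.30 in log2 for LPL (SE 0.26, adjusted p = 5.79e-06) and 4.19 for IEL (SE 0.24, adjusted p = 3.76e-05). Over all members, every LPL library lay above every tissue library in 10 of 10, where 26.5% of all genes did, and every IEL library in 10 of 10, where 22.9% did.

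The members also differed between LPL and IEL. All 10 estimates were lower in IEL, with a median log2 difference of -1.16 against -0.025 for all genes, and 7 of 10 passed the threshold as lower, where 7.92% of all genes did. Nr4a1 fell by 1.87 on the log2 scale from LPL to IEL (SE 0.23, adjusted p = 0.00106 in edgeR), and Atf3 differed by -1.45 (adjusted p = 0.011) and Egr2 by -1.41 (adjusted p = 0.000685). Fosb differed by -1.30 (adjusted p = 0.0114), Ier2 by -1.20 (adjusted p = 0.000548), Dusp1 by -1.12 (adjusted p = 0.00802) and Fos by -0.71 (adjusted p = 0.0182). The 3 members that did not pass were Jun (-0.92, SE 0.30, adjusted p = 0.0584), Egr1 (-1.01, SE 0.49, adjusted p = 0.174) and Junb (-0.37, SE 0.28, adjusted p = 0.387). Each SE rests on 1 estimate of spread per gene over all 6 groups, tissue included. Egr1 ran from 6.3 to 36.8 CPM in tissue, against 1338 to 1484 in LPL and 526 to 892 in IEL. Every LPL library exceeded every IEL library in 9 of 10 members, where 15.1% of all genes did. Fos did not pass when any 1 of the 4 IEL libraries was left out (-0.72 to -0.77, adjusted p = 0.054 to 0.076), nor Fosb without KO IEL replicate 2 (-1.26, adjusted p = 0.063). LPL and tissue, IEL and tissue, and IEL and LPL share their libraries, so these 3 comparisons are not independent of one another. The order of levels was therefore tissue, IEL, LPL from low to high for 7 members by test, and for Jun, Egr1 and Junb the difference between the upper places did not pass the test.

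**Figure D2:**
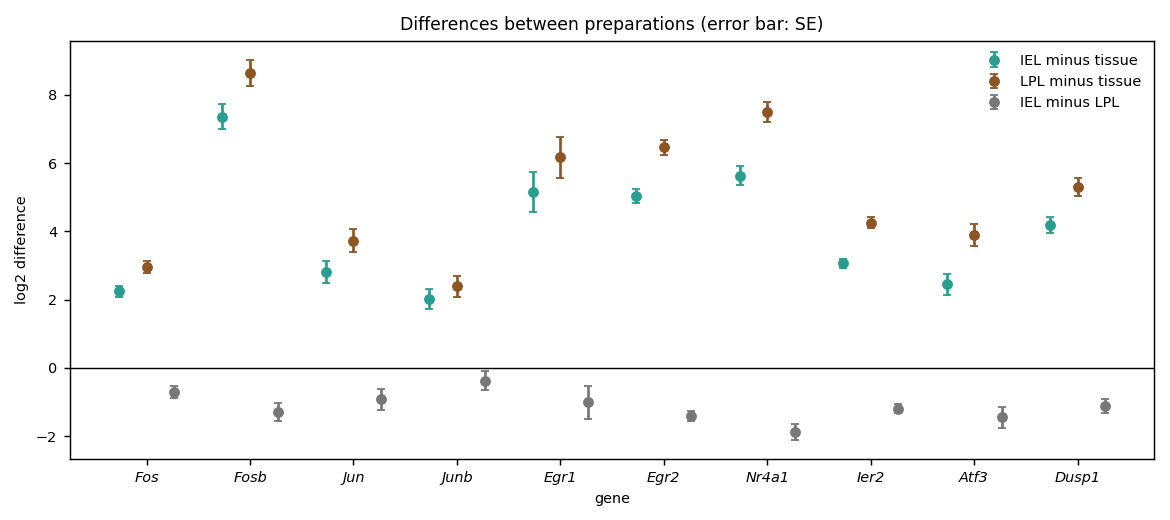
Log2 difference of each member between preparations over both genotypes, with bars of 1 SE from the edgeR fit. All points against tissue lie between 2.02 and 8.65, and all points of IEL minus LPL lie below 0, from -1.87 for Nr4a1 to -0.37 for Junb.

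Genes outside the 10 with the most similar profile over the 12 libraries were found by Pearson correlation of log2 CPM with the members' mean profile, among 10497 genes. As a description, since libraries of a preparation share most of the pattern, the members themselves had r of 0.971 to 0.997 with that mean. The 5 most similar other genes were Btg2 (r = 0.9892), Dusp5 (0.9883), Klf11 (0.9866), Taf1d (0.9866) and Snhg12 (0.9853). Btg2, an antiproliferative gene that is itself rapidly induced, stood at 91.8 to 142 CPM in tissue, 383 to 566 in IEL and 790 to 845 in LPL. Dusp5, a nuclear phosphatase of ERK, averaged 7.16 ± 2.17 CPM in tissue, 92 ± 13.7 in IEL and 194 ± 39.9 in LPL (SD, n = 4). Klf11, a Krüppel-like factor, ran from 3.71 to 7.42 CPM in tissue to 24.8 to 46.6 in IEL and 75 to 89.9 in LPL.

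A wider list of 44 other immediate early genes, of which 43 were measured, moved mostly the same way. Relative to tissue, 31 rose and 4 fell in LPL (median log2 difference 1.49), whereas 23 rose and 4 fell in IEL (median 0.96). Over all genes, 27.3% were called higher and 28.0% lower in LPL, and 21.9% higher and 23.1% lower in IEL. Between the preparations, 16 of the 43 were lower in IEL than in LPL and 0 higher, where 7.92% and 11.5% of all genes were. Fosl1, another Fos family member, rose by 7.26 in LPL (SE 0.47, adjusted p = 1.51e-05), from 0.108 to 15.1 CPM, and by 4.63 in IEL. Egr4 rose by 7.13 in LPL (SE 1.15, adjusted p = 0.00134) from a tissue mean of only 0.0647 CPM. Arc, best known from neurons, rose by 6.41 in LPL (SE 0.37), and Nr4a2 by 4.58 in IEL (SE 0.27). Among those named by the rule, 3 genes fell in both preparations. The matricellular gene Ccn2 differed from tissue by -2.28 in LPL (SE 0.71) and -5.69 in IEL (SE 0.96), at a tissue mean of 3.01 CPM. Klf4 differed by -1.37 in LPL (SE 0.17) and -1.54 in IEL (SE 0.18), and Fosl2 by -0.77 (SE 0.19) and -1.28 (SE 0.19).

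The lists around the members have to be read against the same shares of all genes, 27.3% higher and 28.0% lower in LPL and 21.9% and 23.1% in IEL, and a count near them is no result about the list. Against tissue, 3 of 9 other MAP kinase phosphatases rose and 3 fell in LPL, whereas 4 rose and 2 fell in IEL. Dusp5 rose by 4.80 in LPL (SE 0.21) and 3.73 in IEL (SE 0.20) and Dusp4 by 3.03 and 1.93. Dusp6, the cytoplasmic ERK phosphatase, fell in both (-2.42 in LPL, SE 0.26, and -1.15 in IEL, SE 0.25). Among 13 bZIP partners, 3 rose and 6 fell in LPL, whereas 3 rose and 5 fell in IEL. The risers were the same in both, Ddit3 (3.38 in LPL, 1.82 in IEL), Cebpb (2.18 and 1.58) and Atf4 (1.49 and 0.71), genes linked to the integrated stress response and to inflammation. Maf was among those that fell in LPL (-3.05, SE 0.28). Among 23 upstream kinases and factors, 4 rose and 8 fell in LPL, whereas 5 rose and 6 fell in IEL. The SRF gene itself, Srf, was 0.98 higher in LPL than in tissue (SE 0.17) and 1.34 lower in IEL than in LPL, while the ERK pathway kinases Map2k1 (-1.90 in LPL, -1.45 in IEL) and Mapk3 (-1.58 and -1.18) were lower in both. The median of this list was -0.18 in LPL and -0.20 in IEL.

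Heat shock genes, which encode chaperones, were mostly higher: 12 of 13 in LPL (median 1.77) and 10 of 13 in IEL (median 0.88), with 1 lower in each. Hspa1a rose from 17.3 ± 23.8 CPM in tissue to 808 ± 217 in LPL and 331 ± 212 in IEL (SD, n = 4), and Hspa1b from 38.2 ± 43.3 to 1050 ± 320 and 460 ± 274. These near-identical copies can share reads, so their separate values are uncertain. Dnajb1 rose by 2.98 in LPL (SE 0.29), and the small heat shock gene Hspb1 was the one that fell (-2.47 in LPL, SE 0.59, and -4.41 in IEL, SE 0.67). Among 13 measured T cell activation genes, 4 rose and 2 fell in LPL, whereas 6 rose and 1 fell in IEL, where 27.3% and 28.0% of all genes did in LPL and 21.9% and 23.1% in IEL. The activation marker Cd69 rose by 4.44 in LPL (SE 0.89) and 5.09 in IEL (SE 0.90). Cd69 stood at 31 ± 34.3 CPM over the 4 LPL libraries, a spread as large as the mean, and the T cell marker sum over those libraries ran from 2.42 to 103 CPM. The part of T cell content in these values was not tested.

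**Figure D3:**
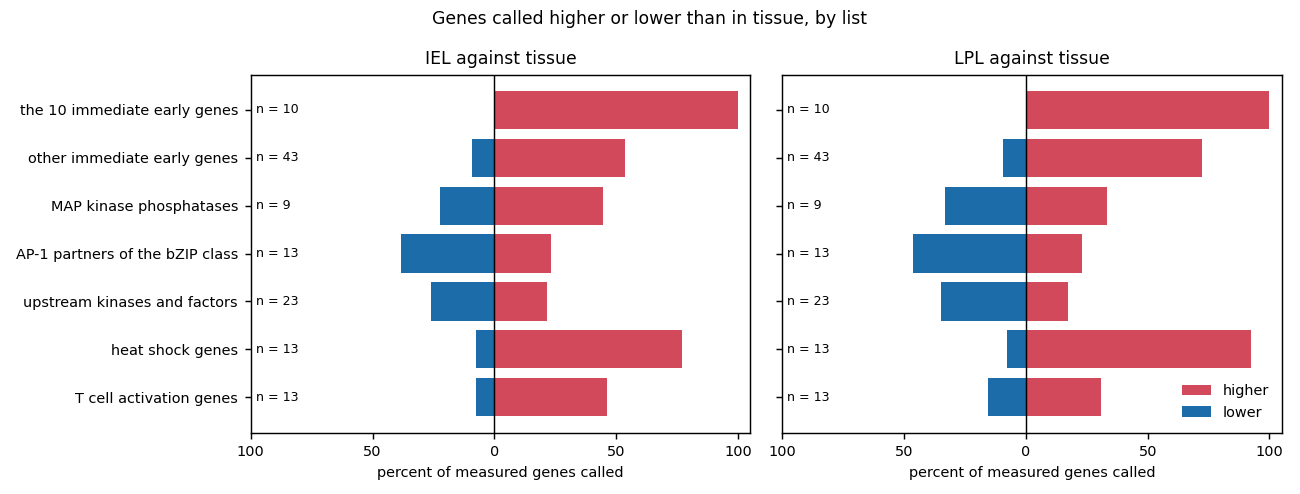
Percent of the measured genes of each list called higher (red, to the right) or lower (blue, to the left) than in tissue in the edgeR test, for IEL and LPL. All of the 10 members are higher in both panels, other immediate early genes and heat shock genes are mostly higher, and bZIP partners and upstream genes fall on both sides.

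Between KO and WT, 0 of the 10 members passed the threshold in tissue, LPL or IEL. The same test called 0 genes of 14716 in each of the 3 preparations (0% in each direction), while 463, 448 and 120 genes in tissue, LPL and IEL had an unadjusted p under 0.05. DESeq2 called 0 members as well, and 6 genes of all in tissue and 1 each in LPL and IEL. What follows are therefore values, not calls.

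In tissue, 8 of 10 members had a higher estimate in KO, with a median log2 difference of 0.52 against -0.0096 for all genes. The differences were 1.13 for Atf3 (SE 0.42, unadjusted p = 0.0255, adjusted p = 1 in edgeR), 0.89 for Dusp1 (SE 0.32, unadjusted p = 0.0204, adjusted p = 1) and 0.54 for Fos (SE 0.24, unadjusted p = 0.0495, adjusted p = 1). Junb differed by 0.70 (SE 0.40) and Jun by 0.64 (SE 0.42), whereas Ier2 differed by -0.018 (SE 0.18) and Egr1 by -0.24 (SE 0.71). Both KO libraries exceeded both WT libraries for Fos, Egr2 and Dusp1, 3 of 10, where 13.2% of all genes did. For Egr2 this rested on 7 and 10 reads in WT and 10 and 8 in KO, which overlap before scaling to library size. Tissue libraries with the same replicate number shared other features. Both replicate 2 libraries expressed the Y-linked gene Ddx3y (34 CPM in WT, 38.7 in KO), which was at 0 and 0.109 in replicate 1, and lactase, Lct, stood at 81.2 and 211 CPM in replicate 1 and at 0.33 and 0.359 in replicate 2. Along with these, Jun was 2.23 times higher in replicate 2 than in replicate 1 in WT and 2.03 times in KO, and Junb 2.03 and 1.8 times. The ratio for Ier2 was 0.984 and 0.969. Within replicate 1 the log2 ratio of KO to WT was 0.59 for Atf3, 0.40 for Dusp1 and 0.73 for Fos, and within replicate 2 it was 1.39, 1.24 and 0.36. The part of sex and gut segment in these values was not tested.

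In LPL the members' KO differences were small, from -0.24 for Egr2 (SE 0.22) to 0.091 for Atf3 (SE 0.42), with a median of 0.017, and 0 of 10 separated the genotypes in either direction (9.89% of all genes above, 8.62% below). T cell markers summed to 13.8 and 103 CPM in the WT libraries and 2.42 and 13.5 in the KO libraries, and the 7 macrophage markers to 8.24 and 155 in WT and 7.19 and 8.09 in KO. Their part in the members' values was not tested. The SEs ran from 0.18 for Ier2 to 0.68 for Egr1. They rest on 1 estimate of spread per gene over all 6 groups, so they do not measure the spread within LPL alone. Egr1 ran from 1338 to 1484 CPM in LPL but from 6.3 to 36.8 in tissue.

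In IEL all 10 estimates were lower in KO, with a median of -0.28 against -0.016 for all genes, of which 46.2% were above 0. Egr2 had 44.5 and 31.5 CPM in WT and 23.8 and 19.3 in KO, a log2 difference of -0.82 (SE 0.22, unadjusted p = 0.00471, adjusted p = 1 in edgeR). Nr4a1 had 122 and 160 CPM in WT and 67.3 and 104 in KO, a difference of -0.72 (SE 0.31, unadjusted p = 0.0474, adjusted p = 1). The genotypes did not overlap for either gene. Egr1 differed by -0.47 (SE 0.68), Ier2 by -0.31 (SE 0.18), Atf3 by -0.31 (SE 0.42), Junb by -0.25 (SE 0.40), Fos by -0.18 (SE 0.24), Dusp1 by -0.14 (SE 0.30), Jun by -0.095 (SE 0.42) and Fosb by -0.063 (SE 0.38). Both KO libraries lay below both WT libraries for 6 of 10 members (Fos, Egr1, Egr2, Nr4a1, Ier2 and Atf3), where 12.3% of all genes did. The members share these libraries and are not independent of one another, so this count is a description and not a test. The epithelial marker sum was 10883 and 11080 CPM in the WT libraries and 12325 and 12589 in the KO libraries, and T cell markers summed to 214 and 729 in WT and 237 and 529 in KO. The part of these in the members' values was not tested.

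**Figure D4:**
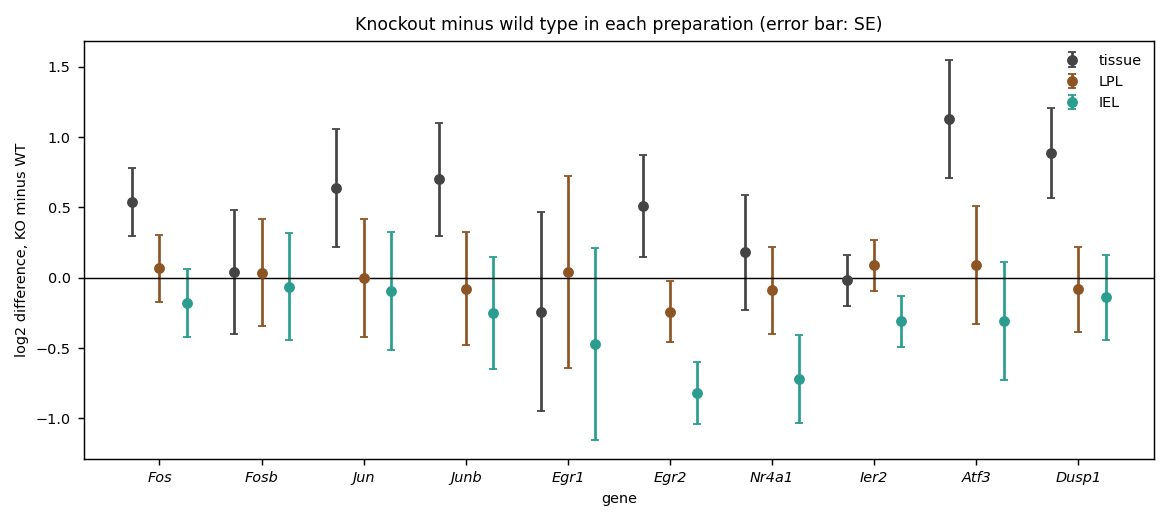
Log2 difference, KO minus WT, of each member in tissue, LPL and IEL, with bars of 1 SE from the edgeR fit. Most tissue points lie above 0, up to 1.13 for Atf3, LPL points lie near 0, and IEL points lie below 0, down to -0.82 for Egr2, with no difference past the threshold.

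Whether the KO difference itself differed between preparations was tested as an interaction, and 0 of 10 members and 0 genes in all passed in any of the 3 pairs (112 to 288 genes had an unadjusted p under 0.05). For IEL against tissue, all 10 estimates were below 0 (median -0.82). The largest were Atf3 at -1.44 (SE 0.59, unadjusted p = 0.0377, adjusted p = 1), Egr2 at -1.33 (SE 0.42, unadjusted p = 0.0114, adjusted p = 1) and Dusp1 at -1.03 (SE 0.44, unadjusted p = 0.0429, adjusted p = 1). Fos and Egr2 separated the genotypes in opposite directions, KO above WT in tissue and below WT in IEL, and their interactions had an adjusted p of 1. Egr2 had only 7 to 10 reads per tissue library, and its unscaled reads overlapped between genotypes there. For LPL against tissue 8 of 10 were below 0, with Atf3 at -1.04 (SE 0.59) and Dusp1 at -0.98 (SE 0.44). In the surrounding lists, too, no gene was called between genotypes in any preparation. The median KO difference of the other immediate early genes was 0.30 in tissue, -0.059 in LPL and -0.12 in IEL. Medians further from 0 were -2.57 for T cell activation genes in LPL and 0.71 for MAP kinase phosphatases in tissue. T cell markers in LPL summed to 13.8 and 103 CPM in WT and to 2.42 and 13.5 in KO, and their part was not tested.

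In purified CD8 IELs the members' levels were uneven. The authors had scaled the reads of each library by a size factor, and the values are given here as normalised counts, and the unstimulated and IL-15 tables had been normalised separately, so they are set side by side without a test. Cd8a stood at 20432 to 25190 normalised counts in the unstimulated libraries and 35297 to 57820 in the IL-15 libraries, and Cd3e at 11294 to 23350 and 14675 to 20122, so these defining genes were abundant in every library. Epcam, an epithelial gene, was at 1265 in unstimulated WT replicate 3, at most 2.79 in the other 5, and at 668 to 3071 in the IL-15 libraries. The sum of the 8 epithelial markers did not follow Epcam. It was 2379 to 20060 in unstimulated WT and 4971 to 9018 in unstimulated KO libraries. After IL-15 it was 2954 to 4567 in WT and 3094 to 4682 in KO.

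**Figure D5:**
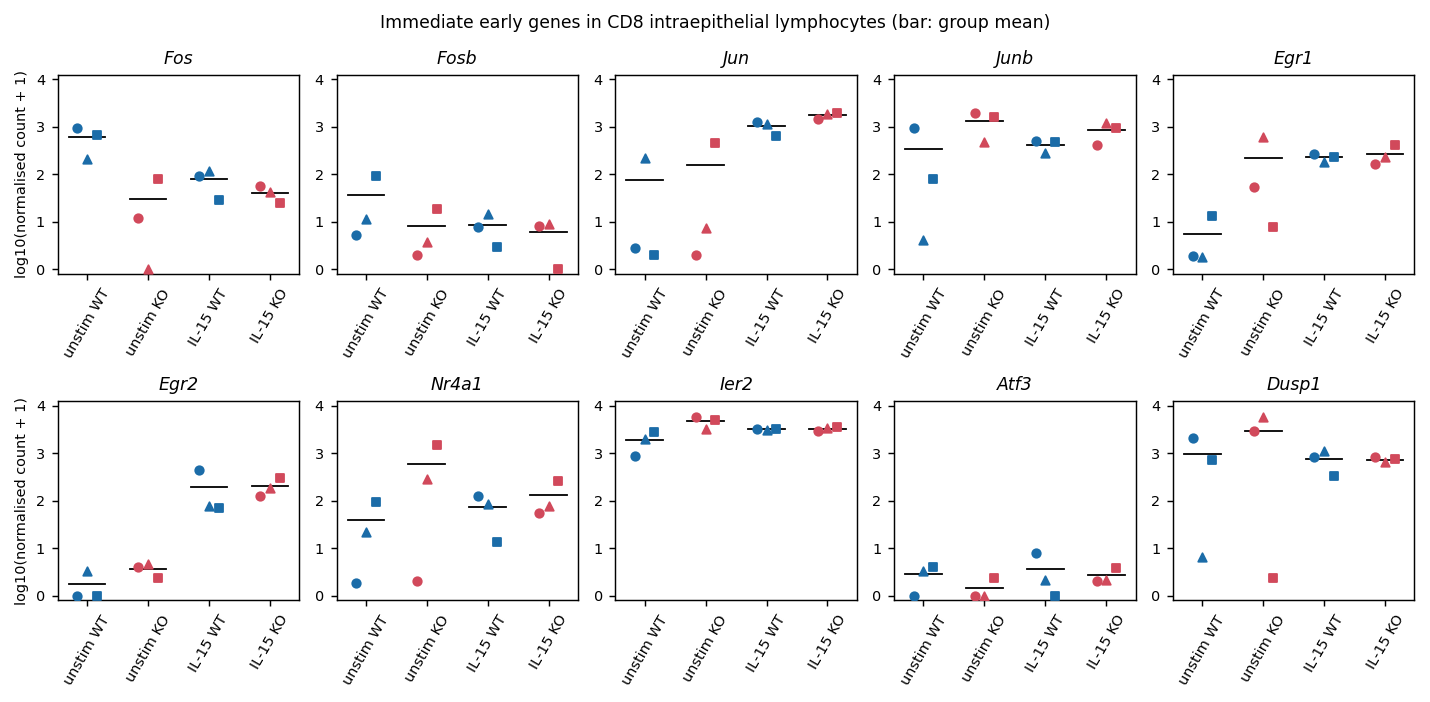
Normalised counts of each member in the 12 CD8 libraries as log10(value + 1), with WT in blue, KO in red, circles, triangles and squares for replicates 1, 2 and 3 and bars for the group mean. Unstimulated libraries of a group spread over orders of magnitude for Jun, Junb, Egr1, Nr4a1 and Dusp1, and IL-15 libraries lie closer together.

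Without stimulation, Jun had 1.74, 221 and 1 normalised counts in the 3 WT libraries and 1.02, 6.51 and 458 in the 3 KO libraries. Dusp1 had 2089, 5.47 and 730 in WT and 2909, 5721 and 1.33 in KO. For both genes each genotype held high and low libraries. Junb had 936, 3.13 and 78.1 in WT and 1940, 482 and 1587 in KO. Nr4a1 had 0.87, 21.1 and 94.1 in WT and 1.02, 281 and 1456 in KO, and Egr1 0.87, 0.781 and 12 in WT and 53.9, 612 and 6.66 in KO. The high library was not the same one for each gene. This spread was not limited to the members. With limits chosen after the values were seen, 4390 of 9039 genes (48.6%) with at least 200 in 1 unstimulated WT library had at most 10 in another, and 4232 of 8639 (49%) in KO. Among members it was 3 of 5 in WT (Jun, Junb, Dusp1) and 4 of 6 in KO (Jun, Nr4a1, Dusp1, Egr1). The IL-15 set had 62 of 8560 such genes in WT (0.724%) and 0 of 8437 in KO, and no member.

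Ier2 was the member with the steadiest level in CD8 cells, at 872, 2006 and 2732 in unstimulated WT libraries and 5753, 3269 and 4911 in KO. All 3 KO libraries lay above all 3 WT libraries, as they did for 3.81% of the 17208 genes tested, but the log2 difference of 1.42 did not pass (SE 0.69, adjusted p = 0.903 in limma). Fos went the other way, with 922, 211 and 664 in WT and 11.2, 0 and 77.2 in KO. All KO libraries lay below all WT libraries, as for 4.71% of genes, and the log2 difference of -5.69 on the log2(value + 1) scale did not pass either (SE 2.09, unadjusted p = 0.0298, adjusted p = 0.903). The 0 reads of KO replicate 2 allow up to 0.14 CPM. Its AP-1 relative Fosb had 4.35, 10.2 and 93.1 in WT and 1.02, 2.79 and 17.3 in KO, which overlap. Egr2, with at most 3.72, and Atf3, with at most 3, were below the mean of 5 required for the test. Of 17208 genes, limma called 0 (0%), with 575 at an unadjusted p under 0.05, and edgeR on the recovered reads called 0 as well, with 492. Libraries also differed in markers of other cells: macrophage markers summed to 6.96 to 32 in WT and 13 to 1102 in KO, and epithelial markers to 2379 to 20060 and 4971 to 9018.

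After IL-15, Jun was high in every library, with 1260, 1132 and 653 normalised counts in WT and 1483, 1817 and 1914 in KO. All KO libraries lay above all WT libraries, as for 11.1% of the 16371 genes tested, with a log2 difference of 0.82 (SE 0.26, unadjusted p = 0.0147, adjusted p = 0.415 in limma). Junb had 511, 279 and 468 in WT and 409, 1217 and 948 in KO, which overlap (log2 difference 0.94, SE 0.43, adjusted p = 0.46). Ier2 hardly varied, with 3232, 3114 and 3251 in WT and 2894, 3323 and 3481 in KO, a difference of 0.011 (SE 0.12). Dusp1 had 841, 1105 and 332 in WT and 807, 638 and 748 in KO, and Egr1 269, 182 and 235 in WT and 164, 226 and 403 in KO. Neither separated the genotypes. Egr2 stood at 442, 77 and 67.7 in WT and 125, 184 and 294 in KO, where the unstimulated table had at most 3.72. Nr4a1 ranged from 12.6 to 256 and Fos from 23.4 to 116 over the 6 libraries, again with overlap of WT and KO. Fosb had at most 13.4 and Atf3 at most 6.81. Atf3, with a mean of 2.15, was below the mean of 5 required for the test, so 9 members were tested here. Limma called 0 of 16371 genes (0%), with 1841 at an unadjusted p under 0.05. On recovered reads, edgeR tested 14136 genes and called 0, with 1490 at an unadjusted p under 0.05.

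The CD8 values are set beside the intestinal preparations as CPM, from separately normalised tables and different library kits and so without a test. The IEL preparations also held other cells, with epithelial markers summing to 10883 to 12589 CPM and T cell markers to 214 to 729. The part of this mixture in the values below was not tested. Atf3 was nearly absent from both CD8 sets, and Fosb was low in both. Atf3, at 400 to 530 CPM in the IEL preparations, was at most 0.161 CPM in unstimulated CD8 IELs and 0.367 in IL-15 CD8 IELs. Fosb, at 541 to 670 CPM in IEL preparations, was at most 4.99 and 0.708. Egr2, at 19.3 to 44.5 CPM in IEL preparations, was at most 0.187 CPM in unstimulated CD8 IELs but 3.78 to 23.8 after IL-15. Fos was at most 44.6 and 6.13 CPM, against 1059 to 1268, and Egr1 at most 30.8 and 24.5, against 526 to 892. Ier2 was detected in every CD8 library, with 42.2 to 292 CPM unstimulated and 165 to 211 after IL-15, below the 363 to 498 of the IEL preparations. For Dusp1 the highest CD8 library, at 287 CPM, was close to the highest IEL preparation, at 282. CD8 CPM used plain read totals and intestinal CPM adjusted ones, so so small a gap cannot be read as a difference.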

How the data were processed

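Poly(A) RNA had been sequenced, with a NEBNext Ultra II RNA kit for tissue, LPL and IEL and a NEBNext Single Cell/Low Input kit for CD8 cells, per the labels. The deposited intestinal files hold raw counts of reads per Entrez gene. Per the file headers the aligner was HISAT2 and the counter featureCounts, whereas the tools named in the submitters' processing notes are featureCounts, TopHat and DESeq with build mm10. For CD8 cells the deposited values are a normalised signal, reads that the authors had scaled by a size factor: multiplied by 1 factor per library, all non-zero values were whole within 0.01, and these recovered reads gave depth and CPM. Their notes list STAR, TopHat, BWA, featureCounts, DESeq, DESeq2, deepTools, mm10 and mm39 without roles. Whether counting used strand is not given in the sources used here. Gene symbols matched 25275 of 27179 Entrez IDs, holding 99.17% of reads, and 51486 of 78275 Ensembl IDs (98.58% and 99.37%).

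Counts were fitted as 6 groups with edgeR 4.0.16 (TMM factors, filterByExpr, quasi-likelihood, R 4.3.3), and SEs were derived from the F statistics. CPM of the intestinal libraries were computed with TMM factors, and those of the CD8 libraries from recovered reads over each library's plain total. CD8 values, being normalised, were tested with limma 3.58.1 (trend) on log2(value + 1), each table apart, keeping genes that averaged 5 or more. P-values were adjusted by Benjamini-Hochberg over all genes tested, at 0.05. Alternatives used DESeq2 1.42.0, RLE factors, other filters and pseudocounts, a replicate block, fits of 1 preparation, edgeR on recovered reads, and leaving out each library. The fits were tested on simulated data. Counting intervals and floors of 3 reads cover counting error only.

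The members and the lists were chosen with earlier results of these data known. All 10 members are named; from each list and comparison, the 3 strongest risers and the 3 strongest fallers past the threshold could be named, and 1 result is not reported here. The most similar genes were the 5 with the highest correlation among genes with a mean of at least 5 CPM, on log2(CPM + 0.5). Promoter windows are from RefSeq. CD8ab and RNA antisense purification samples were not used here. Marker lists not given with the results were B and plasma cells (76.3 to 674 CPM in tissue, 474 to 5141 in LPL, 65.4 to 189 in IEL), fibroblasts and endothelium (71 to 307, 1.75 to 51.2 and 6.15 to 12.8) and erythrocytes (1.2 to 19.2, 6.49 to 124 and 10.2 to 293).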

Additional observations from a re-analysis of the deposited data

How the results depend on the processing

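The number of members called higher than in tissue was 10 in LPL and 10 in IEL under RLE size factors, no filter, DESeq2, the replicate block and the loss of any 1 library. For IEL against LPL it was 7 under RLE and the replicate block, 8 without a filter and with DESeq2, where Jun also passed (adjusted p = 0.029 and 0.009), and 5 to 7 with 1 library left out. The KO and interaction counts were 0 members under each alternative run. Over all genes, the 0 KO calls became 5 higher and 1 lower in tissue and 1 lower in LPL and in IEL with DESeq2, 3 higher in tissue without KO replicate 1, 4 lower in LPL without WT replicate 2, and, in the IL-15 set, 1 higher and 2 lower without a filter and 1 higher without WT replicate 3. Genes lower in IEL than in LPL numbered 1165, 1231 with RLE, 1253 without a filter, 1700 with DESeq2 and 746 with the replicate block. Whether replicate numbers pair libraries could not be shown: the correlation of same-numbered libraries was 0.638 (tissue), 0.301 (LPL) and 0.465 (IEL) with only 2 pairs, where the other pairing must give the opposite sign, and at -0.0574 to 0.000793 in CD8 cells. With the replicate block, 0 members were called for the KO in any set, Atf3 in tissue stood at 1.00 and the counts above held.

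Of 813 values of single members under an alternative, 763 kept direction and side of the threshold, 5 lost and 2 gained a call, and 43 changed sign, all among uncalled KO differences. Ier2 in tissue became 0.0037 with RLE and 0.0039 with DESeq2. Jun in LPL became 0.0044 with both and 0.0086 without a filter. Dusp1 in IL-15 CD8 cells became -0.048 with edgeR on recovered reads. The cause was not tested. With 1 library left out, taking a lone library to vary as the other groups do, tissue values ran from -0.62 to 1.07 for Fosb, -1.26 to 1.45 for Egr1, -0.16 to 0.41 for Nr4a1 and -0.11 to 0.01 for Ier2. LPL values ran from -0.13 to 0.28 for Fos, -0.036 to 0.1 for Fosb, -0.11 to 0.13 for Jun, -0.28 to 0.14 for Junb, -0.034 to 0.11 for Egr1, -0.44 to 0.37 for Nr4a1, -0.0038 to 0.21 for Atf3 and -0.17 to 0.043 for Dusp1. IEL values ran from -0.19 to 0.07 for Fosb, -0.26 to 0.13 for Jun, -0.52 to 0.14 for Junb and -0.42 to 0.26 for Dusp1. Unstimulated CD8 values ran from -1.46 to 3.03 for Jun and -1.87 to 4.25 for Dusp1. IL-15 values ran from -1.34 to 0.3 for Fosb, -0.23 to 0.42 for Egr1, -0.00052 to 1.59 for Nr4a1, -0.045 to 0.088 for Ier2 and -0.41 to 0.46 for Dusp1.

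Depth was ample for the members in LPL and IEL. It limits Egr2 in tissue, at about 1 CPM, Egr2 in unstimulated CD8 cells and Atf3 in both CD8 sets.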
